A study of Homo sapiens with 6 samples.

Results

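TRiC, also called CCT, is the chaperonin of the eukaryotic cytosol: each of its stacked rings is built from 8 different subunits, encoded by TCP1, CCT2, CCT3, CCT4, CCT5, CCT6A, CCT7 and CCT8. The RNA of these genes was examined in 5637, an established human bladder cancer cell line, after transfection with a MAT1A plasmid or an empty vector. The members were the rows of the deposited table that carry these symbols, and all 8 were present among its 13271 genes. The rule names the genes by symbol and uses no measured value, but the set was chosen with earlier results of these data known.

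Each TRiC subunit holds its own place in the ring, so an assembled complex needs all of them in equal number. The ring closes over a newly made protein when ATP is used and lets the protein fold in the enclosed chamber. Actins and tubulins are its best known clients, together with many proteins that have WD40 beta-propeller domains. Prefoldin hands unfolded clients to it, phosducin-like proteins act as its co-chaperones, and tubulin cofactors take over tubulin after it. MAT1A encodes the liver form of methionine adenosyltransferase, which makes the methyl donor S-adenosylmethionine.

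Both groups were 5637 cells transfected with Lipofectamine 3000 when they covered about 50% of the wells. The control group (3 libraries) received an empty vector and the other group (3 libraries) a MAT1A plasmid from Origene, and RNA was taken 48 h later. The labels used here state neither the promoter of the plasmid nor the share of cells that took it up. They also leave it unsaid whether the replicates came from separate cultures, and each p-value therefore reflects the spread among 6 libraries that may be technical repeats.

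The values are reads per gene on a CPM-like scale. The libraries held 17.4 to 21.6 M reads, and 3 reads corresponded to a value of 0.140 to 0.172. MAT1A itself had values of 1.09, 0.253 and 4.54 in control libraries 1, 2 and 3 and of 1805, 1834 and 1917 in MAT1A libraries 1, 2 and 3. Its level matched the label of each library. Of 13 epithelial and urothelial markers, 11 were in the table, with summed values of 8176 to 8455 in control and 9108 to 10008 in MAT1A libraries. Keratins made up most of these sums. Of 10 tested by limma (adjusted p under 0.05), 5 were higher and 1 was lower, against 4.01% and 7.40% of all tested genes. KRT5 and KRT17 were 24.6% and 36.0% higher in the MAT1A libraries, while GATA3 had means of 46.6 in control and 38.4 in MAT1A libraries. UPK1A and UPK3A, markers of differentiated urothelium, were not among the listed genes, and UPK2 had values of 0.606 to 1.08 over the 6 libraries. Markers of other tissues had lower sums but differed between libraries and between the groups. By limma (adjusted p under 0.05), 6 of 7 tested muscle markers were lower in the MAT1A libraries, against 7.40% of all tested genes. So were 1 of 3 fibroblast markers, COL1A1 (means of 133 in control and 93.8 in MAT1A libraries), and the blood cell marker HBB. None of these markers was called higher. Skeletal muscle markers (7 of 8 listed, all but MB) summed to 315.7, 97.4 and 53.7 in the control and 51.7, 24.3 and 20.5 in the MAT1A libraries. Fibroblast markers (3 of 6 listed, DCN, LUM and PDGFRB not) summed to 142.5 to 259 and 121 to 128 in the same order. Of 4 blood cell markers HBB alone was listed, at 26.2 to 52.2 in control and 5.87 to 27.4 in MAT1A libraries, while PTPRC, CD3E and CD68 were not. Control library 1 had the highest value of each of these last 3 sums. Whether they have a part in the results below was not tested, and the results without that library are given where they differ.

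The start regions of the members are shown by their motif matches. Whether these matches have a part in the levels below was not tested. RefSeq promoter windows (build GRCh38.p14, 250 bases before to 50 after a start) matched 7 of the 8 genes with 9 windows. CCT6A had no entry. The sequence CCAAT, searched on both strands (ATTGG on the other), was found in windows of 4 of the 7 genes and in 34.6% of the 35116 windows of all genes. Each match is printed with its flanks as 30 bases, 5′ to 3′ on the strand of the gene, with the motif in capitals.
TCP1, 154 bases before the start, chr6:159789739-159789768, minus strand: atcggctatctaATTGGacaaaaatgccga
CCT2, 91 bases before the start, chr12:69585356-69585385, plus strand: gcccgtggggctCCAATcaaaatgggacgc
CCT3, 75 bases before the start, chr1:156338350-156338379, minus strand: ctaaggctgtcaATTGGtctgtttttgtgc
CCT3, 34 bases before the start, chr1:156338309-156338338, minus strand: atgggtgcggtgATTGGcgactaccttgag
CCT8, 63 bases before the start, chr21:29073694-29073723, minus strand: aagggtgggctaATTGGagagccaggaaga

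The sequence CGGAAGT, a form bound by ETS factors, was searched on both strands. It occurred in windows of 3 of the 7 genes and in 6.83% of all windows. It is shown in capitals below. It shared no base with a CCAAT match.
TCP1, 196 bases before the start, chr6:159789780-159789809, minus strand: tccaacatccgACTTCCGttctccgctttc
TCP1, 113 bases before the start, chr6:159789697-159789726, minus strand: cccggagcctcACTTCCGtcacagtcctgt
CCT2, 16 bases before the start, chr12:69585432-69585461, plus strand: cgtgtggcgtcACTTCCGgcttccttcagt
CCT7, 63 bases before the start, chr2:73234234-73234263, plus strand: ccatagagtagCGGAAGTggtccgttctct

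TCP1 and CCT2 held both motifs, CCT3 and CCT8 the CCAAT sequence alone, and CCT7 the ETS form alone. The windows of CCT4 and CCT5 held neither. The pairs GAANNTTC and TTCNNGAA, inverted units of the heat shock element, occurred in 6.77% and 7.74% of all windows; the first was found in windows of CCT2 and TCP1 and the second in a window of CCT4. GGGCGG was found in 5 of the 7 genes and in 45.0% of all windows, while the E-box CACGTG, in 7.26% of all windows, was found in none of the 7. The TATA box sequence TATAAA, in 11.5% of all windows, was also found in none. AAGATGG, the core of the YY1 motif, was found in CCT2 and in 5.84% of all windows. All were searched on both strands, and a match is a description of the letters only. The windows of CCT3, CCT5 and CCT7 and the second window of CCT2 lie wholly past the start of the gene as annotated in GENCODE release 29, and the others span it.

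All 8 TRiC subunits had higher levels in the MAT1A libraries, and for all 8 every MAT1A library was above every control library. Of the 12866 genes tested, 14.7% were ordered in this way and 51.5% had a fitted change above 0. The difference was small, from 4.50% (CCT4) to 8.82% (CCT7). By limma with Benjamini-Hochberg adjustment over all tested genes, 5 of the 8 passed the threshold of 0.05 as higher (TCP1, CCT5, CCT6A, CCT7 and CCT8) and 0 as lower; 4.01% of all tested genes were called higher and 7.40% lower. With each library's replicate number as a block, 7 passed, all but CCT4, where 7.57% of all tested genes were called higher and 10.4% lower. With each library's dependence on transcript length and GC content removed in addition, all 8 passed, against 9.98% of all tested genes. Since these are bulk samples, more RNA per cell and more cells with much of it cannot be told apart.

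CCT7, a subunit next to CCT5 and CCT8 in the ring, lies on chromosome 2 (73233420 to 73253021 of GRCh38, plus strand). Its values were 547.4, 554.8 and 558.2 in control libraries 1, 2 and 3 and 587.4, 620.4 and 599.0 in MAT1A libraries 1, 2 and 3. The groups did not overlap, and MAT1A library 2 was the highest. The means were 553 ± 5.53 and 602 ± 16.7 (SD, n = 3 each), and the change was 0.12 on the log2 scale (SE 0.03, limma adjusted p = 0.0136).

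TCP1, the founding member of the family, lies on chromosome 6 (159778498 to 159789749, minus strand). It had values of 561.8, 583.4 and 588.2 in the control libraries and 611.0, 642.0 and 627.3 in the MAT1A libraries. Library 1 of each group was the lowest of its group, and the groups did not overlap. The means were 578 ± 14.0 and 627 ± 15.5 (SD, n = 3 each), and the change was 0.12 on the log2 scale (SE 0.03, limma adjusted p = 0.0199). TCP1 shares 397 exon bases with ACAT2 on the other strand, and reads of both genes cannot be told apart there; ACAT2 had a log2 change of -0.04 (limma adjusted p = 0.590).

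CCT5, the subunit whose mutation is known in a hereditary sensory neuropathy, lies on chromosome 5 (10249921 to 10266412, plus strand) and had the highest values of the 8. They were 678.6, 693.6 and 686.9 in the control libraries and 737.8, 756.5 and 737.3 in the MAT1A libraries. The lowest MAT1A library was above the highest control library. The means were 686 ± 7.49 and 744 ± 10.9 (SD, n = 3 each), and the change was 0.12 on the log2 scale (SE 0.03, limma adjusted p = 0.0129). An antisense gene, AC012640.4, shares 1757 exon bases with CCT5. The sequencing was unstranded, and how reads in these bases were counted is not stated.

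CCT3, CCT6A and CCT8 sit side by side in the ring and are the subunits that bind ATP weakly. CCT6A (chromosome 7, 56051630 to 56063989, plus strand) had values of 632.3, 629.5 and 641.9 in the control and 666.7, 683.5 and 679.1 in the MAT1A libraries. CCT8 (chromosome 21, 29055805 to 29073797, minus strand) had values of 493.1, 497.1 and 491.1 in the control and 517.7, 533.6 and 530.8 in the MAT1A libraries. CCT3 (chromosome 1, 156308968 to 156367873, minus strand) had values of 577.3, 579.9 and 587.7 in the control and 599.9, 633.2 and 629.8 in the MAT1A libraries. In all 3 genes MAT1A library 1 was the lowest of its group and still above the controls. CCT6A went from 635 ± 6.53 to 676 ± 8.71 (SD, n = 3 each), a log2 change of 0.09 (limma adjusted p = 0.0424). CCT8 went from 494 ± 3.05 to 527 ± 8.51, a log2 change of 0.09 (limma adjusted p = 0.0390). CCT3, at 582 ± 5.37 and 621 ± 18.3, had the same log2 change of 0.09 with a wider spread, and missed the threshold (limma adjusted p = 0.0534). It passed with the block (limma adjusted p = 0.00649).

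CCT2 and CCT4 lie next to each other on the side of the ring that binds ATP readily, and CCT4 is among the subunits known to touch actin. CCT2 (chromosome 12, 69585334 to 69601570, plus strand) had values of 550.5, 570.4 and 559.8 in the control and 579.2, 601.4 and 604.7 in the MAT1A libraries. CCT4 (chromosome 2, 61868089 to 61888804, minus strand) had the lowest values, 450.3, 456.3 and 457.4 in the control and 470.9, 481.5 and 473.0 in the MAT1A libraries. Neither passed the test, although the groups did not overlap in either gene. For CCT2 the means were 560.2 ± 9.94 and 595 ± 13.8 (SD, n = 3 each) and the log2 change was 0.09 (limma adjusted p = 0.0705, and 0.00996 with the block). For CCT4 they were 455 ± 3.83 and 475 ± 5.61, and the log2 change was 0.06 (limma adjusted p = 0.160, and 0.0643 with the block). CCT4 shares 275 exon bases with an antisense gene, AC107081.2, and 81 with COMMD1.

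**Figure D1:**
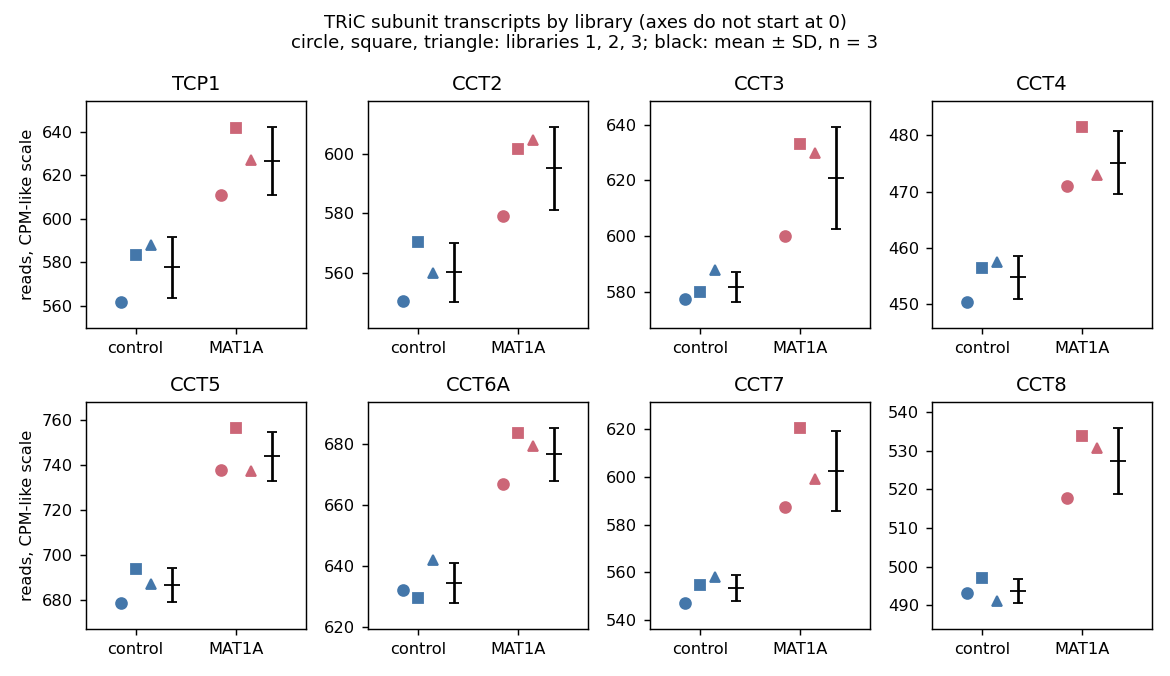
Deposited value of each TRiC subunit in each library, on the CPM-like scale; circles, squares and triangles are libraries 1, 2 and 3, the black bars are the mean ± SD of 3 libraries, and the axes do not start at 0. In all 8 genes the 3 MAT1A points lie above the 3 control points, by the widest relative margin of means in CCT7 (8.82%) and the narrowest in CCT4 (4.50%).

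The calls were close to the threshold and depended on single libraries. The direction did not, but since the groups did not overlap, leaving out a library could not have reversed it. All 8 unadjusted p-values were under 0.05. Without control library 1, the one with the highest muscle marker level, 0 of the 8 passed (6 had an unadjusted limma p under 0.05), all 8 remained above 0 and their median log2 change was 0.09. Without control library 3 also 0 passed (7 with an unadjusted p under 0.05), with a median of 0.10. Calls fell over all tested genes too: 516 were higher as reported, 230 without control library 1 and 219 without control library 3. Without control library 2, or without MAT1A library 3, 3 passed (TCP1, CCT5 and CCT7), and without MAT1A library 1 it was 4 (TCP1, CCT3, CCT5 and CCT7). Over all tested genes 366, 668 and 320 were called higher, in the same order. In another setting each column was divided by its total without MAT1A, which also replaced the authors' scaling (library size without MAT1A, here and below). There TCP1, CCT5 and CCT7 passed, and 410 of all tested genes were called higher. The effect of the MAT1A reads alone was not tested.

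The subunits moved by like amounts. Their log2 changes ran from 0.06 to 0.12 with a median of 0.09, against standard errors of 0.03 for each gene. The median over all tested genes was 0.00. Genes expressed as highly as the members (mean value 465 to 715; 164 genes, the 8 included) had a median of 0.04, and 14.6% of them were called higher and 32.9% had no overlap with MAT1A above. The highest and the lowest member differed by 0.06 on the log2 scale, and this difference between members was not tested.

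**Figure D2:**
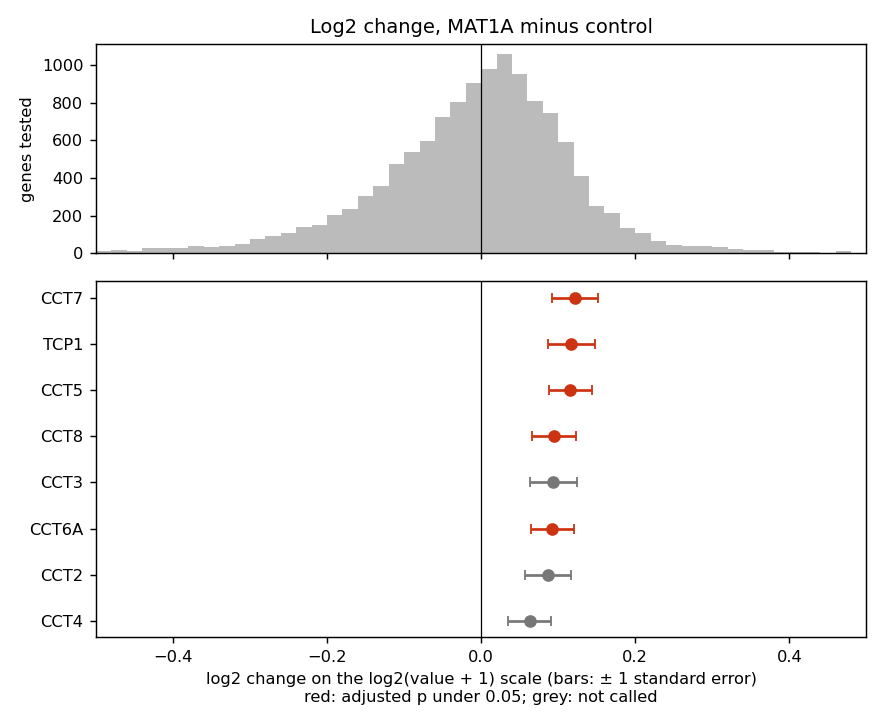
Log2 change (MAT1A minus control, log2 of value + 1) of each subunit with bars of 1 limma standard error (bottom; red where called, grey where not), below a histogram of the log2 change of all tested genes (top; genes beyond 0.5 in either direction are not shown). All 8 points lie between 0.06 and 0.12, to the right of 0, and 5 are called.

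Same-numbered libraries were also compared, which gives 24 pairs of a subunit and a number. In all 24 the MAT1A library was higher, which the lack of overlap in all 8 genes had already fixed, so this count adds no evidence. The excess ran from 3.91% to 8.74% in pair 1, from 5.44% to 11.8% in pair 2 and from 3.41% to 8.09% in pair 3, with medians of 5.33%, 8.83% and 7.24%. Summed over the 8 subunits, the values were 4491, 4565 and 4571 in the control and 4771, 4952 and 4881 in the MAT1A libraries, means of 4542 ± 44.4 and 4868 ± 91.5 (SD, n = 3 each). The summed level was thus 7.16% higher in the MAT1A group, and it made up 0.450% to 0.488% of all values in a library.

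The subunits also shifted together between libraries of the same group. Relative to their own group mean on the log2 scale, 0 of 8 were above it in control library 1 and 0 of 8 in MAT1A library 1, while 8 of 8 were above it in MAT1A library 2. In control libraries 2 and 3 it was 6 of 8 each, and in MAT1A library 3 it was 5 of 8. Over all tested genes this share was between 50.0% and 50.8% in every library. Among genes of like level the share above the group mean was 39.0%, 64.0% and 44.5% in control libraries 1, 2 and 3 and 40.2%, 66.5% and 42.7% in MAT1A libraries 1, 2 and 3. In the libraries numbered 1 and 2 most of these genes lay on the same side as most subunits, and in those numbered 3 on the other side. The size of these shifts was small, with a mean over the members of -0.02 in control library 1, -0.03 in MAT1A library 1 and 0.02 in MAT1A library 2 on the log2 scale. Counting error alone was 0.795% to 1.13% of a member's value, from 7846 to 15816 reads, and the spread between libraries of a group was 0.617% to 2.95% of the mean.

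**Figure D3:**
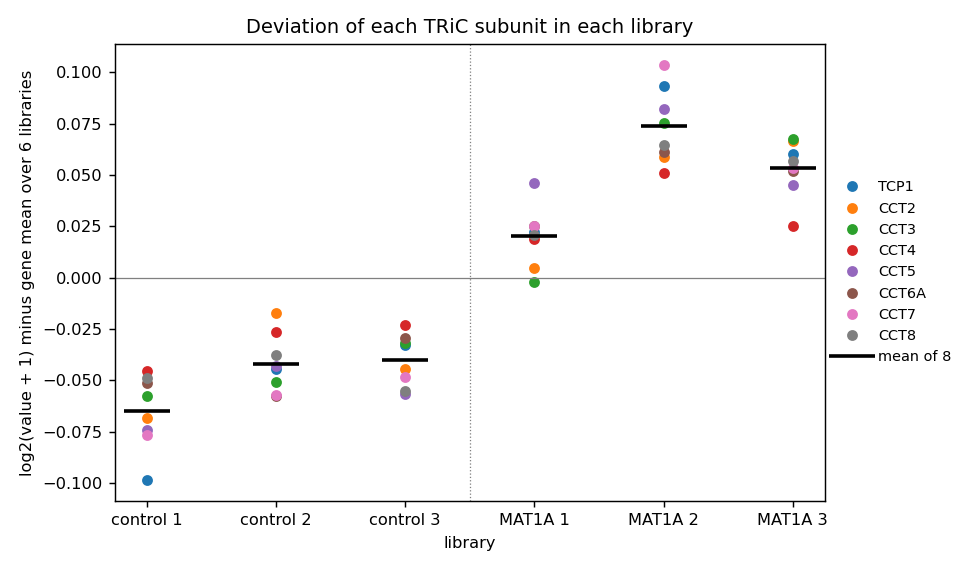
Deviation of each subunit from its mean over the 6 libraries (log2 units), by library; each point is 1 subunit and the black bars are the mean of the 8. The mean is lowest in control library 1 and highest in MAT1A library 2, and in the MAT1A libraries only CCT3 in library 1 lies below 0.

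Per kilobase of the main transcript (1916 to 3675 bases long), the level of the highest subunit was 1.60-fold that of the lowest in control and 1.67-fold in MAT1A libraries. In control libraries CCT7 was highest with 289 ± 2.88 per kilobase (SD, n = 3), followed by CCT2 with 274 ± 4.87 and CCT3 with 271 ± 2.50, which overlapped each other. CCT8 followed with 246 ± 1.52. CCT6A (233 ± 2.40) and TCP1 (231 ± 5.62) overlapped as well, and CCT5 (187 ± 2.04) and CCT4 (180.4 ± 1.52) were lowest. CCT5, which had the highest value per gene, is thus among the lowest when divided by its chosen length of 3675 bases. This rank depends on the transcript chosen. It also depends on how reads in the 1757 exon bases shared with AC012640.4 were counted, which is not stated. In MAT1A libraries the order was the same except that TCP1 (251 ± 6.22) and CCT6A (249 ± 3.20), which overlapped, changed places.

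The makeup of the 8 shifted little. As a share of the sum per kilobase, CCT7 went from 15.1% to 15.3% and CCT4 from 9.44% to 9.21%, the widest shifts in either direction at 0.237 and -0.231 percentage points. TCP1 had a shift of 0.152 points, CCT5 of 0.115 and CCT2 of -0.122, and those of CCT3, CCT6A and CCT8 were smaller. These shares were not tested.

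Both tested copies of CCT6A fell. CCT6P1, a transcribed pseudogene related to CCT6A, had values of 7.52, 9.45 and 9.02 in the control and 4.74, 5.70 and 6.62 in the MAT1A libraries, from 88 to 187 reads. The groups did not overlap, and the log2 change was -0.53 (limma adjusted p = 0.00421). CCT6P3, another such copy, had values of 2.24, 2.73 and 2.85 in the control and 1.89, 1.75 and 1.63 in the MAT1A libraries, again with no overlap and from 34 to 59 reads. Its log2 change was -0.38 (limma adjusted p = 0.0457), and this call was lost without any one library other than control library 1 (limma adjusted p up to 0.181) and once the trend on length and GC was removed (limma adjusted p = 0.0540). That of CCT6P1 held without each library in turn (limma adjusted p up to 0.0283). CCT8P1 was under the level tested, with values of 0.647 to 1.32 over the 6 libraries. Single reads of 36 cycles can fit a gene and its copy equally well, and the labels do not state how the authors' counting placed them, so these values and that of CCT6A are uncertain to that extent.

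For 4 subunits a gene that starts next to it in the opposite direction was tested, and none passed. MRPL18 starts 63 bases from TCP1, PSPH 26 bases from CCT6A, PRADC1 182 bases from CCT7 and COMMD1 within 80 bases of CCT4. Their log2 changes were 0.05, 0.03, 0.01 and -0.01, with limma adjusted p-values of 0.556, 0.725, 0.938 and 0.969. The direction for PRADC1 and COMMD1 changed with the processing. FAM173B, beside CCT5, and MIR3913-1, beside CCT2, were not analysed here.

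Upstream of TRiC, none of the 6 prefoldin subunits passed the test (1 had an unadjusted limma p under 0.05, VBP1, named after its value was seen, with a log2 change of -0.08; limma-voom also called 0). The most abundant, PFDN5, had means of 151 ± 1.94 and 155 ± 7.63 (SD, n = 3 each), and PFDN2 of 114 ± 2.40 and 119 ± 8.06. The median log2 change of the 6 was 0.04, and both named changes were below 0 without MAT1A library 2. Of 7 subunits of the R2TP and prefoldin-like complex, which assembles large protein machines, 1 rose: RUVBL2, an ATPase, from 182 ± 4.02 to 199.7 ± 11.5, a log2 change of 0.13 (limma adjusted p = 0.0400). This call was lost without any one of the control libraries, without MAT1A library 1 or without MAT1A library 2 (limma adjusted p up to 0.180), and with library size without MAT1A (limma adjusted p = 0.0531). With the block, RUVBL1, its partner ATPase, passed as well (141 ± 5.39 and 150 ± 2.89, limma adjusted p = 0.0253).

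Co-chaperones and helpers of tubulin gave no call in the reported fit. Of 3 phosducin-like regulators tested, 0 passed (1 with an unadjusted limma p under 0.05, 0 by limma-voom). PDCL had means of 45.0 ± 1.00 and 43.3 ± 2.33 (SD, n = 3 each). TXNDC9, which dampens TRiC activity, had values of 43.0, 43.4 and 47.0 in the control and 39.4, 39.3 and 41.6 in the MAT1A libraries, with no overlap. Its log2 change was -0.15, with a limma adjusted p of 0.0670, and it passed as lower with the block (limma adjusted p = 0.0253) and without MAT1A library 3 (limma adjusted p = 0.0433). Of 7 tubulin folding cofactors 0 passed (1 with an unadjusted limma p under 0.05, 0 by limma-voom); TBCD had means of 114 ± 0.527 and 119.7 ± 2.97, and TBCA of 80.5 ± 4.50 and 83.2 ± 5.76.

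Transcripts of TRiC's clients gave no call in the reported fit either. None of 15 tested actin and tubulin genes passed (3 with an unadjusted limma p under 0.05, TUBA1A and TUBE1 lower and TUBG1 higher; 0 by limma-voom), and their median log2 change was 0.03. ACTB, beta-actin, had values of 5658, 5757 and 5869.9 in the control and 5792, 5995 and 5649 in the MAT1A libraries, which overlapped, and a log2 change of 0.01 (SE 0.03) whose direction changed with the processing. ACTG1, gamma-actin, had 3432, 3479 and 3469.8 in the control and 3579, 3686 and 3403 in the MAT1A libraries, again with overlap. With the block TUBA1A, an alpha-tubulin at 28.9 ± 2.48 and 25.1 ± 0.838 (SD, n = 3 each), passed as lower (limma adjusted p = 0.0153). It also did so without control library 3 (0.0201) or without MAT1A library 2 (0.0491), with library size without MAT1A (0.0431) and once the trend on length and GC was removed (limma adjusted p = 0.0172). Of 24 beta-propeller and other client genes 0 passed (4 with an unadjusted limma p under 0.05, PPP2R2D lower and HDAC3, CCNE1 and BBS2 higher; 0 by limma-voom), with a median log2 change of -0.01. GNB1, a G protein beta subunit, had means of 583 ± 3.73 and 568 ± 6.74, and GNB2 of 287 ± 5.66 and 297 ± 23.7. With the block CCNE1, cyclin E, passed as higher (47.5 ± 1.13 and 52.4 ± 1.61, limma adjusted p = 0.0241), as it did without MAT1A library 3 (0.0447), with a filter of 5 (0.0481) and once the trend on length and GC was removed (limma adjusted p = 0.0405).

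Among chaperones outside the complex, HSPD1, the subunit of the mitochondrial chaperonin, rose; its change was larger than that of each TRiC subunit, a difference that was not tested. Its values were 829, 848 and 831 in the control and 917, 926 and 943 in the MAT1A libraries, with no overlap. The change was 0.15 on the log2 scale (SE 0.03, limma adjusted p = 0.00198), and the call held without each library in turn (limma adjusted p up to 0.0233). Its co-chaperonin HSPE1, which shares a promoter region with it and was named after its values were seen, had means of 64.3 ± 3.06 and 67.0 ± 2.18 (SD, n = 3 each) and did not pass (log2 change 0.06, limma adjusted p = 0.413). Of 3 chaperonin-like relatives tested, which help to assemble the BBSome, 0 passed and 0 had an unadjusted limma p under 0.05 (0 by limma-voom); MKKS had means of 34.4 ± 1.39 and 36.1 ± 1.37, and BBS10 of 15.3 ± 1.08 and 13.7 ± 1.36.

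The next list held the heat shock factor HSF1 and cytosolic chaperones and co-chaperones linked to it. Of these 21 genes, 4 rose and 0 fell, against 4.01% and 7.40% of all tested genes. Of the 21, 11 had no overlap with MAT1A above, against 14.7% of all tested genes, and the median log2 change was 0.08. The changes ran from -0.05 to 0.23, with 16 above 0, and 17 genes were not called. HSPH1 (642 ± 16.0 and 641 ± 10.4) and HSPA1B (65.3 ± 1.37 and 65.2 ± 1.52; SD, n = 3 each), named after their values were seen, did not pass. HSPA4, a nucleotide exchange factor of Hsp70, went from 336 ± 6.58 to 366 ± 8.57 (SD, n = 3 each; log2 change 0.12, limma adjusted p = 0.0157). DNAJB1, an Hsp40, went from 226 ± 5.88 to 247 ± 4.26 (0.13 on the log2 scale, limma adjusted p = 0.0158). HSP90AA1, the inducible Hsp90, went from 3197 ± 46.6 to 3450.2 ± 41.6 (0.11 on the log2 scale, limma adjusted p = 0.0259). HSPA8, the constitutive Hsp70, was also called (limma adjusted p = 0.0381). With the block 10 of the 21 rose, where 7.57% of all tested genes did. HSF1 was among them (limma adjusted p = 0.0392, and 0.0988 without the block). The calls of HSPA4, DNAJB1, HSP90AA1 and HSPA8 were each lost without control library 1 and without control library 3, with limma adjusted p-values up to 0.183. Those of DNAJB1, HSP90AA1 and HSPA8 were also lost without MAT1A library 1, those of HSP90AA1 and HSPA8 without control library 2, and that of HSPA8 without MAT1A library 3.

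The 26S proteasome served as a second complex of fixed makeup. Of its 31 subunits, 27 had a change above 0 (51.5% of all tested genes did) and 12 had no overlap with MAT1A above (14.7% of all tested genes). Of the 31, 1 rose and 0 fell, which is near the 4.01% of all tested genes called higher, and the median log2 change was 0.06. PSMA4, the subunit that passed, went from 221 ± 7.89 to 238 ± 3.66 (SD, n = 3 each; log2 change 0.11, limma adjusted p = 0.0459), a call lost without control library 1 or 3 and without MAT1A library 1 or 2 (limma adjusted p up to 0.240), and with library size without MAT1A (limma adjusted p = 0.0678). With the block 6 rose, where 7.57% of all tested genes did. Over the 119 genes of the 10 partner lists together, 7 rose and 0 fell (4.01% and 7.40% of all tested genes), and with the block 20 rose and 2 fell (7.57% and 10.4%). Without control library 1 or without control library 3, 1 of the 119 rose, and without MAT1A library 1 it was 2. Over all tested genes 230, 219 and 320 were called higher in these settings.

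**Figure D4:**
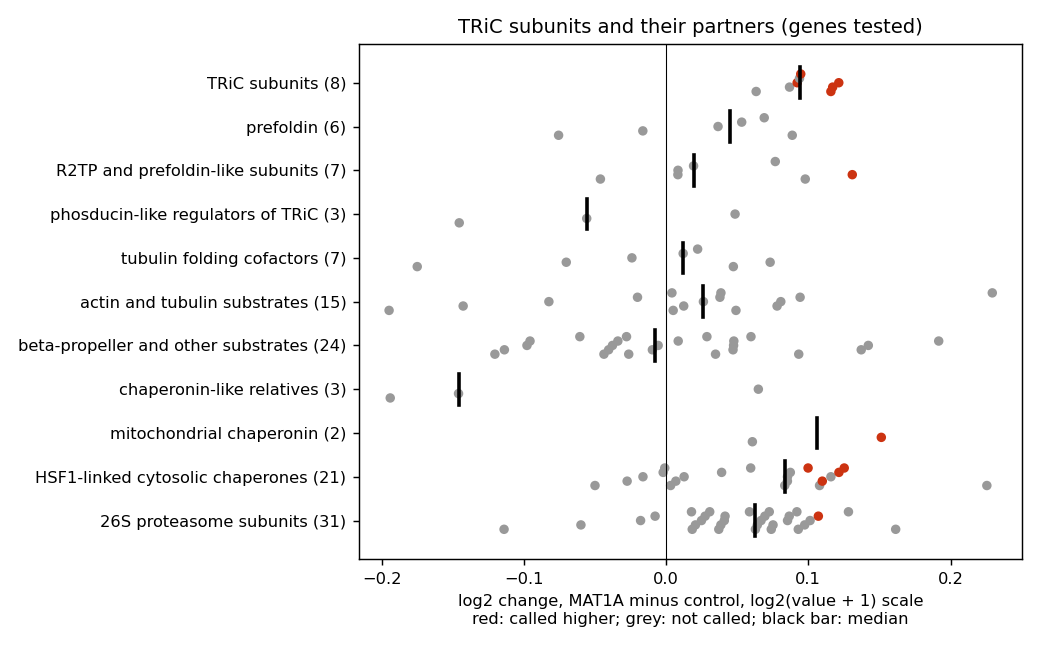
Log2 change of every tested gene of the TRiC subunits and of each partner list; points are genes, red where limma called them higher and grey where not called, the black bar is the list's median, and the number of genes stands beside each name. The 8 TRiC subunits lie between 0.06 and 0.12, the 31 proteasome subunits between -0.11 and 0.16 and the 15 actins and tubulins between -0.19 and 0.23; the longer lists include genes of much lower level and larger error, so the widths are not comparable.

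By likeness of pattern, each subunit lay close to the average of the other 7. The distance used is the root mean square difference, over the 6 libraries, of the log2 deviations from a gene's own mean, for genes with a mean value of at least 50. It ran from 0.0114 (CCT8) to 0.0221 (CCT4), and between 10 and 113 of the 4705 other genes were closer (0.213% to 2.40%). Most of the 4705 have a lower level than the members, and so a larger error, which widens their distances. The ranking was not repeated among genes of like level. The 5 other genes nearest to the mean pattern of the 8 were KDM1A, ETF1, HSPA8, PAICS and ILF2, at distances of 0.0078 to 0.0103. This pattern includes the difference between the groups, so genes chosen by it rise by a like amount. Their changes and p-values are therefore descriptions, not independent results. KDM1A, a histone demethylase, had values of 271, 276 and 275 in the control and 286, 295 and 292 in the MAT1A libraries (log2 change 0.08, limma adjusted p = 0.0726). HSPA8, the chaperone that binds nascent chains, had values of 2385, 2446 and 2430.3 in the control and 2554, 2609 and 2618 in the MAT1A libraries. It went from 2420.3 ± 32.0 to 2594 ± 34.4 (SD, n = 3 each), a log2 change of 0.10. ILF2, a double-stranded RNA binding protein, went from 439 ± 4.76 to 472 ± 13.3 (log2 change 0.10, limma adjusted p = 0.0323), a call lost without each library in turn except MAT1A library 1 (limma adjusted p up to 0.139). ETF1, a translation release factor, and PAICS, an enzyme of purine synthesis, had log2 changes of 0.08 each and did not pass (limma adjusted p-values of 0.0743 and 0.0950). With the block KDM1A, ETF1 and PAICS all passed (limma adjusted p-values of 0.0225, 0.0247 and 0.0288).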

How the data were processed

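RNA of 6 libraries of 5637 cells was measured by unstranded sequencing with 36-cycle reads. The authors deposited a signal for 13271 genes: the reads of each gene, scaled in a way close to CPM (column sums 997732 to 1015443). Per the submitters' processing notes, hg38, the aligner STAR 2.6.0c, featureCounts and edgeR were used, with no settings or annotation stated there. Every value was a whole multiple of 1 step per column within 0.001 reads, which gives a depth of 17.4, 19.8 and 20.7 M reads for the control group (replicates 1, 2 and 3) and of 18.7, 19.8 and 21.6 M for the MAT1A group; floors of 3 reads and counting errors cover counting error only. The lowest row total was 25 reads, so rows had been removed before deposit.

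Sample titles gave the groups and the replicate numbers. The main test was limma 3.58.1 in R 4.3.3 with a trend, on log2(value + 1), for the 12866 genes that reached 1 in 3 or more libraries; the pseudocount understates the change of low genes. Benjamini-Hochberg adjustment ran over all of them, and genes under 0.05 were called. The planned test for counts was not used, since the table holds scaled values. The code was tested on simulated data. Same-numbered libraries deviated together over genes after group means were removed (correlations 0.246, 0.178 and 0.191), so the numbers were taken to pair the libraries; this pairing comes from the data, not from a label.

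The members and all lists were chosen with earlier results of these data known. Named were all 8 members, MAT1A, up to 3 called genes per direction and list by smallest p (with none called, the 2 of highest mean), the 5 genes of nearest pattern, and copies of the members; other names followed a call under the block, an unadjusted p under 0.05 in a list with no call, a position beside a member, or are marked. Positions and transcript lengths are from GENCODE release 29, promoter windows from RefSeq. Alternatives were 3 other scalings, limma-voom on whole reads, no filter or a filter of 5, a pseudocount of 0.1, an adjusted p under 0.01, the replicate block, removal of a trend on transcript length and GC in each library, both together, and leaving out each library.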

Additional observations from a re-analysis of the deposited data

How the results depend on the processing

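No alternative put a TRiC subunit below 0. Under 17 settings besides the one reported, the log2 changes of the 8 genes stayed between 0.05 and 0.14. Leaving out a library could not have reversed them, since the groups did not overlap. Settings that changed only the filter, the adjusted p or the block kept the reported log2 changes. The number called higher was less stable. It was 5, and 0 to 5 when each library was left out in turn, 0 at an adjusted p under 0.01 (limma; all 8 had an unadjusted p under 0.05, and limma-voom called 6 at 0.05), 3 with library size without MAT1A, and 8 once the trend on length and GC was removed, also together with the replicate block. Over all genes, 1468 were called (516 higher and 952 lower), and leaving out each library gave 749 to 1656 (219 to 668 higher and 530 to 988 lower), with 782 without control library 1 and 749 without control library 3. An adjusted p under 0.01 gave 663 (175 and 488). The replicate block gave 2310 (974 higher), removal of the length and GC trend 967 higher, and both together 2495 (1284 higher). The share of calls that were higher was 35.1% as reported, 48.5% with the length and GC trend removed and 51.5% with the block as well. Of the partner genes, 7 were called higher and 0 lower; this became 1 to 10 and 0 to 1 without each library, 1 higher at an adjusted p under 0.01, 5 and 1 with library size without MAT1A, 20 and 2 with the replicate block, 17 and 3 after removal of the length and GC trend, and 22 and 3 with both. The replicate block changed no call of the named genes other than those given in the text. Directions changed for uncalled genes near 0. For ACTB the log2 change was 0.0124 as reported, -0.00914 after removal of the length and GC trend (also with the replicate block) and -0.0102 to 0.0327 without each library. For PRADC1 it was 0.01, -0.0218 and -0.0180 to 0.0432 in the same order, and -0.000343 with library size without MAT1A. Without each library COMMD1 ran from -0.0583 to 0.0509, PFDN5 from -0.00338 to 0.0602, PFDN2 from -0.00198 to 0.0823, TBCA from -0.00858 to 0.0801 and GNB2 from -0.00915 to 0.105. The cause of these differences was not tested. No setting moved the median of all genes by over 0.1; it stayed between -0.01 and 0.01. DESeq2 and edgeR on whole reads were not run. The step of 3 columns rests on smallest values of 2 to 5 reads, and whole reads were not taken as recovered for a count model. The limma-voom results, the depths and the counting errors use the same steps and share this limit.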
